A study of Arabidopsis thaliana with 27 samples.

Results

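The long H3K27me3 domains of wild-type (WT) Arabidopsis thaliana seedlings were chosen from the peak lists of 2 WT libraries. In each list, peaks separated by at most 500 bp were joined into domains, and a joined domain of at least 3000 bp in WT replicate 1 was kept when it overlapped a joined domain of at least 3000 bp in WT replicate 2. The rule gave 514 long domains, 10.5% of the 4890 joined domains of WT replicate 1 that overlapped any joined domain of WT replicate 2. They span 2.58 Mb of the 8.11 Mb in those 4890 domains, or 31.8%. Because WT peaks chose them, all WT values below are descriptions and nothing was tested against WT.

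The libraries came from chromatin immunoprecipitation and sequencing of whole 14-day-old seedlings, grown in 1/2 MS medium under long days. H3K27me3 was mapped in brm-1 ref6-1, ref6-1, brm-1 and WT plants, with 2 libraries per genotype (brm ref6, ref6, brm and WT below). GFP was mapped in brm plants with REF6-GFP (2 libraries) and in REF6-GFP plants that the labels do not mark as mutant (a first library and 2 later ones). It was likewise mapped in ref6-1 plants with BRM-GFP (2 libraries) and in BRM-GFP plants not marked as mutant (a first library and 1 later one). The labels name a promoter, ProBRM, for 1 ref6 BRM-GFP library and do not say whether replicates came from separate plantings, so p-values measure only the spread between these libraries. A peak list of chromatin cannot check the brm-1 and ref6-1 alleles. In bulk seedlings, fewer marked cells and less mark per cell cannot be told apart.

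H3K27me3 is set by Polycomb repressive complexes, in plants mainly over whole transcribed regions of genes that are silent in a tissue, and neighbouring silent genes can share a domain. REF6 is a Jumonji-domain enzyme with zinc fingers that removes methyl groups from this lysine. BRAHMA (BRM) is the ATPase of a SWI/SNF complex that uses ATP to move or evict nucleosomes, and BRM is known to oppose Polycomb at many genes.

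The lists differ in ways that touch every comparison below. H3K27me3 lists held 11132 to 13079 peaks, except ref6 replicate 2 with 5582. The median peak was 1575 bp wide in ref6 replicate 2, against 289 bp in ref6 replicate 1 and 332 to 527 bp in the 4 brm ref6 and brm libraries. Peaks covered 11.5 Mb in ref6 replicate 2 and 5.31 Mb in ref6 replicate 1, the highest and the lowest of the 8 libraries. The 2 ref6 libraries are therefore given separately, and results that rest on one of them are given with and without it. Read depth is unknown from a peak list, so a gap in a list does not show that the mark was absent.

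The long domains ran from 3001 to 21983 bp with a median of 4413 bp, against a median of 1070.5 bp for the other 4376 WT domains. Of the 514, 192 reached 5000 bp and 13 reached 10000 bp. Chromosomes 1 to 5 held 133, 69, 102, 87 and 123 of them. The threshold cut a continuous range. Just inside it lay domains of 3001 bp with AT2G32870 and with RHS14 and of 3008 bp with AT5G38400. Just outside lay domains of 2997 bp with BBM, an AP2-type regulator of embryo development, and with AT5G58400, and one of 2987 bp with AT2G21720.

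Long domains were mostly far apart, with a median gap of 125425 bp, but 122 of them lay in 56 runs whose neighbours were at most 10000 bp apart. The largest run held 4 domains over 29544 bp at chr4:8736427-8765970. It contains PEN1, a triterpene synthase, and the cytochrome P450 genes CYP705A1, CYP705A2 and CYP702A3. Another run of 3 at chr1:25976408-25995069 is centred on AP1. A run at chr5:16114023-16143890 contains MYB23 and MYB24.

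A gene was counted inside when at least 50% of its body lay in a long domain. By that measure 948 of 37899 genes, 2.5%, were inside, of which 642 lay wholly inside. Protein-coding genes made up 735 of them, 2.68% of all protein-coding genes, and 21 of 326 microRNA genes were inside (6.44%), against 22 of 3917 pseudogenes (0.562%) and 31 of 926 transcribed pseudogenes (3.35%). A long domain held 2 genes in the median and 9 at most. One gene was inside 222 domains, 2 genes inside 152 and 3 or more inside 113, while 27 held none. Of the 4376 other domains, 2027 (46.3%) held no gene, but their median length was 1070.5 bp, and a short domain can hold 50% of fewer gene bodies. Gene bodies covered 56.5% of the base pairs of long domains and 68.9% of those of the other domains. Protein-coding genes inside had a median length of 1662 bp, against 2078 bp over all protein-coding genes. The 50% rule itself favours short genes, since a long gene fits less readily into a domain.

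Regulators of development were frequent in the lists examined. Of 16 floral organ identity genes, 7 were inside, all MADS-box genes: AG, which specifies stamens and carpels, AP1 and its relatives CAL and FUL, the co-factors SEP2 and SEP3, and the ovule gene STK. Of 13 shoot meristem and boundary genes, 6 were inside, among them the KNOX homeobox genes STM, KNAT1 and KNAT6, the boundary gene CUC2, and LOB and AS2. Of 13 seed maturation genes, 5 were inside, namely the embryo regulators LEC2, FUS3, ABI3 and ABI4 and the storage globulin CRU3. PLT1, PLT2 and WOX9 were inside among 10 root stem cell genes, and YUC1, YUC4 and the auxin carrier PIN5 among 20 auxin genes. The flowering time list had 1 of 16, the repressor FLC. The Polycomb list had 1 of 16, MEA, a histone methyltransferase of the seed. None of 13 housekeeping genes and none of 6 partner genes of chromatin remodelling was inside. The lists are small and were drawn up with earlier results of these data known, so these counts stand beside the 2.5% of all genes as a description.

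Families recognised by gene symbol varied widely. MYB genes had 17 of 116 inside (14.7%), including MYB23 of trichomes, MYB46 of secondary walls and MYB94 of cuticular wax. NAC genes had 9 of 81 (11.1%), WRKY genes 6 of 67 (8.96%) and cytochrome P450 genes 10 of 225 (4.44%). TCP genes had 3 of 16, among them the branching gene TCP12, and YUCCA genes 2 of 11. By symbol, 1 of 35 LBD genes (2.86%), none of 21 ERF genes and none of 9 bHLH genes was inside. These counts miss family members with other symbols, such as HFR1, a bHLH factor, and the LOB-domain genes LOB and ASL1, which were inside. They are therefore no measure of the whole families. None of 38 cyclin, 35 ribosomal protein or 42 proteasome genes was inside. The microRNA genes inside include MIR169k, MIR169l, MIR169m and MIR169n, and also MIR156f, MIR172d and MIR319a, whose families control phase change and leaf form. Outside the lists, and named after their values were seen, the 4 seed storage albumin genes SESA1 to SESA4 shared 1 domain, and THAS1, CYP71A16 and MRN1 of triterpene synthesis were inside others.

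The longest domain, chr3:7719134-7741116, spans 21983 bp and starts at AT3G21920. Peaks covered 94.6% and 80.3% of it in brm ref6, 65.8% and 96.4% in ref6, 96.7% and 97.6% in brm, and 89.7% and 80.0% in WT. The next, 15199 bp around MRN1, was covered by 91.1% and 78.3% in brm ref6, 60.6% and 100% in ref6, 95.6% and 98.7% in brm, and 89.2% and 80.9% in WT. Both had ref6 replicate 1 at the bottom. The others of the 10 longest hold AT5G17080, RALFL12, RALFL13 and SHT, AT1G23580, AT3G17530, AT1G52060, TPS04 and SCPL32, LST8-2 and RALFL15, and AT1G47395 with MIR5664. RALFL genes encode small secreted peptides.

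The long domains kept most of their H3K27me3 peak coverage in all 3 mutants. The mean over the 514 domains was 87.6% and 77.5% in brm ref6, 61.8% and 94.8% in ref6, 96.1% and 94.9% in brm, and 92.8% and 84.8% in WT. As genotype means this is 82.5 ± 7.13% in brm ref6, 78.3 ± 23.3% in ref6, 95.5 ± 0.835% in brm and 88.8 ± 5.68% in WT (SD, n = 2 each). Both brm libraries lie above both brm ref6 libraries and above both WT libraries. Of all 8, ref6 replicate 1 is the lowest, while ref6 replicate 2 is just under brm. The differences were -17.2 points for ref6 minus brm and -13.0 points for brm ref6 minus brm (exact permutation over libraries, two-sided, p = 0.33 for both, the smallest that 2 libraries against 2 allow). For brm ref6 minus ref6 it was 4.23 points (p = 1, exact permutation), and -12.3 points without ref6 replicate 1.

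**Figure D1:**
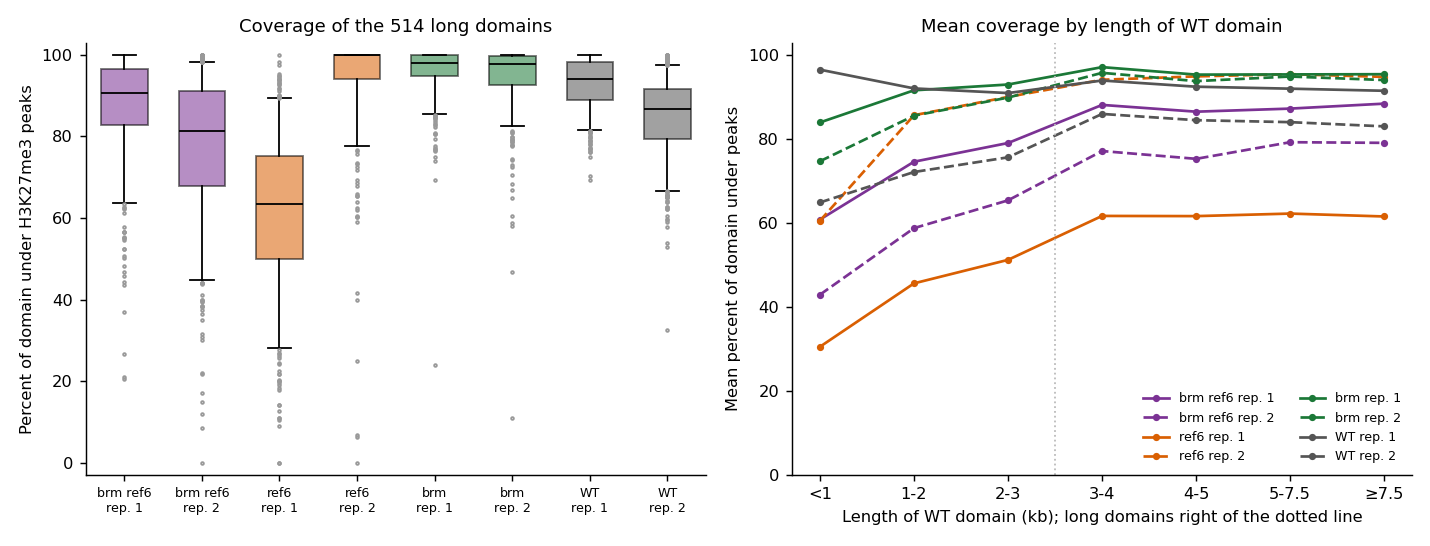
Left, percent of each of the 514 long domains under H3K27me3 peaks in each library (box, quartiles with the median; whiskers, the 5th and 95th percentiles; dots, domains beyond them). Right, mean percent covered in each library by the length of the WT domain in kb. The curves of the mutants and of WT replicate 2 climb up to 3 kb and are nearly level for the long domains. Throughout the long domains, ref6 replicate 1 is lowest and ref6 replicate 2 is near brm.

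A long domain with no peak at all was rare in any library. The 2 brm ref6 libraries had 0 and 1 such domains, the ref6 libraries 2 and 1, and the brm libraries none. Among the other WT domains, 12% and 19.5% had no peak in brm ref6, 26.7% and 19.8% in ref6, and 3.13% and 4.98% in brm. Mean coverage of the other domains was 69.0% and 52.6% in brm ref6, 39.5% and 74.7% in ref6, and 88.3% and 81.3% in brm, below that of the long domains in each of the 6 mutant libraries. The comparison follows length. In brm ref6 replicate 2, mean coverage was 42.9% for WT domains under 1000 bp and 65.4% for those of 2000 to 3000 bp, then 77.2% at 3000 to 4000 bp and 79.1% at 7500 bp and above. In ref6 replicate 1 the same classes had 30.5%, 51.2%, 61.7% and 61.6%. WT replicate 2 also followed length, with 64.9%, 75.7%, 86.0% and 83.1%, and covered 69.2% of other domains against 84.8% of long ones. The rule asked for length in WT replicate 2 for long domains only. WT replicate 1, whose peaks set the bounds, had 93.8% against 92.8%. The contrast with other domains is thus not particular to the mutants. Within the long domains, coverage did not climb further with length in any mutant library by more than a few points.

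Part of the shortfall lay in gaps inside domains, beside the inward edge shifts given further on. In ref6 replicate 1, 276 of the 514 long domains were broken into more than 1 joined domain, against 19 in ref6 replicate 2. The count was 85 and 159 in brm ref6, and 28 and 27 in brm. WT replicate 2 had 79. At least 90% of the domain was covered in both libraries for 133 domains in brm ref6, 18 in ref6, 408 in brm and 152 in WT. Peaks covered 45 domains completely in both brm libraries, including those of STM and of CAL, and 1 in both ref6 libraries.

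Domains were next tested one by one between mutants with limma on percent coverage, over all 4890 WT domains. For ref6 minus brm, 1 long domain was lower and none was higher, while 5.17% of all WT domains were lower and 0.164% higher. For brm ref6 minus brm, the same long domain was lower and none higher, while 3.33% of all domains were lower and 0.0% higher. For brm ref6 minus ref6, no domain was called in either direction (0.0% and 0.0%), with 153 of 4890 domains and 1 long domain at an unadjusted p under 0.05. With all libraries kept, the share of long domains called was thus under the background in the contrasts with brm. The median difference of long domains was -16.0 points for ref6 minus brm, -10.03 for brm ref6 minus brm and 4.72 for brm ref6 minus ref6. Over all WT domains these medians were -21.6, -17.4 and 2.29. With each library centred on its own median over all WT domains, the signs against brm turned: 15 of all WT domains were called higher and 0 lower for ref6 minus brm and for brm ref6 minus brm, no long domain was called, and the long-domain medians were 7.98 and 12.3 points. The calls and medians move with the ref6 libraries. Without ref6 replicate 2, the long-domain median was -32.0 points for ref6 minus brm, against -43.6 over all WT domains. For brm ref6 minus ref6 it was 20.6, against 19.3 over all. Without ref6 replicate 1 the medians were 0.636 against 0.230 for ref6 minus brm, and -10.5 against -11.8 for brm ref6 minus ref6. A lone ref6 library has no spread of its own, so these medians are a description.

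The long domain called lower in ref6 and in brm ref6 than in brm lies at chr3:19668906-19672215 and holds AT3G53050 and SK6. Its coverage was 20.5% and 12% in brm ref6, 14.2% and 6.65% in ref6, 96.9% and 81.4% in brm, and 87.6% and 71.6% in WT. The 4 libraries of ref6 plants and double mutants do not overlap the 4 of brm and WT plants. The difference was -78.8 ± 11.1 points for ref6 minus brm (SE, limma adjusted p = 0.0291) and -73.0 ± 11.1 points for brm ref6 minus brm (limma adjusted p = 0.0441). Neither contrast called a long domain on the arcsine square root scale, with a replicate block or with centred libraries. Without ref6 replicate 1 neither did, and brm ref6 minus brm called none without ref6 replicate 2 or without either brm ref6 library. A domain with AT1G09483 at chr1:3059970-3063376 had a like pattern, with 21.0% and 8.39% in brm ref6, 11% and 0% in ref6, 84.5% and 57.9% in brm, and 86.2% and 64.0% in WT. Its ref6 minus brm difference of -65.7 points did not pass (limma adjusted p = 0.0553).

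Coverage under 50% in both libraries of a genotype was uncommon among long domains. It was seen in 8 in brm ref6, where 19.9% of all WT domains met it, in 5 in ref6 (18.0% of all), in 1 in brm (3.54% of all) and in none in WT (0.204% of all). In ref6 these were the 2 domains just named and those at chr2:8016042-8019653, which holds no gene, with AT2G22340 and with AT5G11940. The gene-free domain had 83.2% and 68.1% in brm ref6, 0% and 24.9% in ref6, 96.3% and 98.3% in brm, and 70.4% and 62.2% in WT. It was low in the ref6 libraries alone. Its brm ref6 minus ref6 difference of 63.2 points was the largest of the long domains and did not pass (limma adjusted p = 1).

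The 8 low domains of brm ref6 include those of FLC, of WRKY29 with GH9B15, and of WRKY68. The FLC domain, chr5:3173568-3181180, spans 7613 bp and holds the main repressor of flowering. Its coverage was 26.7% and 39.9% in brm ref6, 64.5% and 77.9% in ref6, 86.8% and 84.7% in brm, and 93.5% and 86.0% in WT. Both double-mutant libraries lie below all 6 others. Peaks covered 33.5% and 50.1% of the FLC gene body in brm ref6, 78.8% and 100% in ref6, 96.7% and 94.8% in brm, and 96.9% and 95% in WT. The domain differed by -52.5 ± 17.7 points for brm ref6 minus brm (limma adjusted p = 0.377) and by -37.9 ± 17.7 points for brm ref6 minus ref6 (limma adjusted p = 1), so neither passed. The WRKY68 domain had 43.5% and 30.8% in brm ref6, 10.4% and 59.0% in ref6, 88.0% and 89.8% in brm, and 76.1% and 77.4% in WT. The WRKY29 domain had 46.8% and 37.3% in brm ref6, 20.2% and 85.1% in ref6, 74.9% and 70.5% in brm, and 88.1% and 71.3% in WT. In both, the ref6 libraries lie on either side of the double mutant.

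After FLC, the lowest brm ref6 minus ref6 differences among long domains were those of the domains with AT1G06090 (-31.5 points), HFR1, a bHLH factor of light signalling (-29.9), ARP1 (-25.7) and KNAT6 (-24.7). The HFR1 domain had 48.2% and 64.7% in brm ref6, 72.8% and 100% in ref6, 99.4% and 93.1% in brm, and 99.3% and 90.1% in WT. The KNAT6 domain had 55% and 53.4% in brm ref6, 59.5% and 98.2% in ref6, 99.0% and 99.1% in brm, and 92.9% and 82.2% in WT. In the HFR1 and KNAT6 domains the double-mutant libraries were lowest, and none of these differences passed (limma adjusted p = 1 for each). The ESR1 domain, which holds a regulator of shoot regeneration, showed a split between the ref6 libraries, with 18.2% and 97.1%, against 85.5% and 79.5% in brm ref6.

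**Figure D2:**
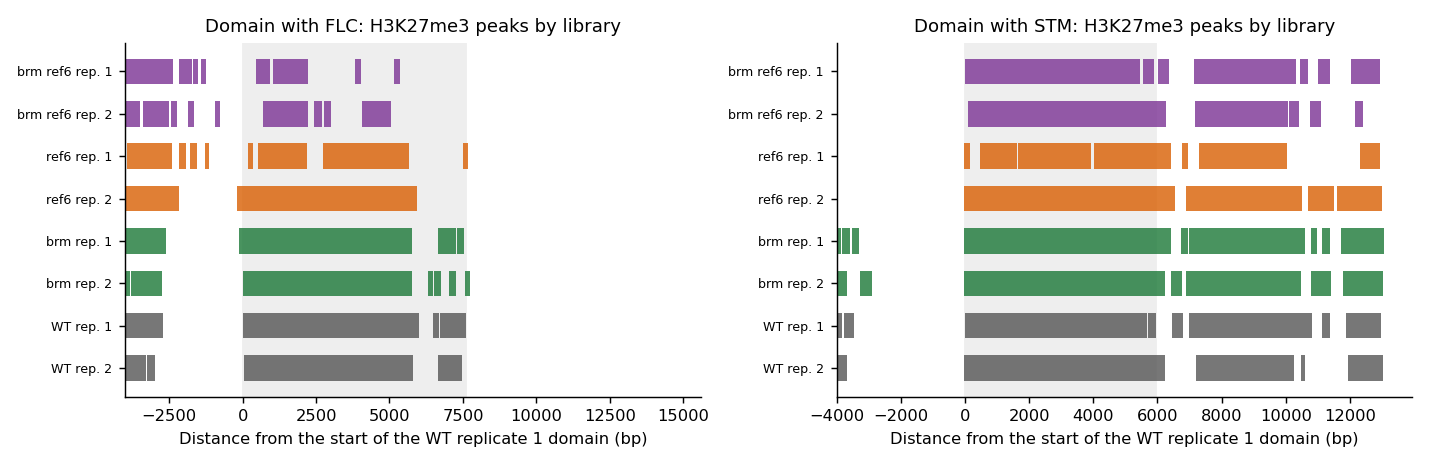
H3K27me3 peaks of each library (coloured bars, 1 row per library) across the FLC domain (left) and the STM domain (right); grey marks the WT replicate 1 domain and the x axis gives distance from its start in bp. Bars fill the FLC domain in brm and WT except near its right end and are broken into pieces in brm ref6, while the STM domain is covered by 92.9% to 100% in the 8 libraries.

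One domain was low in brm alone. It lies at chr5:24581457-24585654, spans 4198 bp and holds AT5G61110 and AT5G61120. Its coverage was 87.6% and 44.1% in brm ref6, 71.9% and 100% in ref6, 23.9% and 10.9% in brm, and 88.7% and 77.2% in WT. Both brm libraries lie below the other 6. The ref6 minus brm difference of 68.6 ± 23.1 points did not pass (limma adjusted p = 0.273). A library-specific gap was seen in the 11240 bp domain that starts with AT3G17530. It was covered by 6.17% in ref6 replicate 2, against 93.4% in ref6 replicate 1 and 95.2% to 99.6% in the other 6 libraries.

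The development genes of the lists stayed covered in most libraries. Over the 26 list genes inside long domains, the median coverage of the gene body was 97.8% and 89.5% in brm ref6, 79.4% and 100% in ref6, 97.4% and 96.2% in brm, and 94.9% and 92.5% in WT. Under 50% of the body was covered for 2 and 0 of the 26 in brm ref6, 3 and 0 in ref6, and none in the brm and WT libraries. FLC was the lowest of the 26 in both brm ref6 libraries, and LEC2, at 44.7%, in ref6 replicate 1. CUC2 was covered by 100% in all 8 libraries. AG had 99.2% and 95.3% in brm ref6, 92.9% and 100% in ref6, 96.4% and 96.0% in brm, and 100% and 97.8% in WT, a spread of under 10 points. ABI4, a regulator of the response to abscisic acid and sugar, was at 100% in 7 libraries and at 97.5% in ref6 replicate 1.

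The edges of the long domains lay further out in both brm libraries. Relative to the edges in WT replicate 1, the median shift was 26.5 and -35.5 bp in brm ref6, -205 and 243.5 bp in ref6, 174 and 176 bp in brm, and -14 bp in WT replicate 2, with outward shifts positive. The share of edges over 500 bp further out was 17.5% and 12.3% in brm ref6, 4.10% and 27.7% in ref6, 28.0% and 29.4% in brm, and 8.27% in WT replicate 2. Edges over 500 bp further in made up 6.23% and 11.7% in brm ref6, 23.7% and 5.26% in ref6, 0.875% and 1.46% in brm, and 3.79% in WT replicate 2. The median shift differed by -179.5 bp for brm ref6 minus brm (exact permutation, two-sided, p = 0.33, the smallest possible), with no overlap of the libraries. For ref6 minus brm it differed by -155.75 bp (exact permutation p = 1), the ref6 libraries lying on either side of brm.

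Over 500 bp further out in both libraries were 91 of 1026 measured edges in brm ref6 (7.7% of the edges of all WT domains), 37 of 1022 in ref6 (4.38% of all) and 204 of 1028 in brm (16.6% of all). As shares of the long-domain edges these are 8.87%, 3.62% and 19.8%, near those of all WT domains. Peaks covered 21.0% and 16.0% of the 1000 bp outside the edges in brm ref6, 6.78% and 36.6% in ref6, 30.9% and 32.3% in brm, and 5.50% and 12.1% in WT. The WT replicate 1 value is held down because no peak of that library can lie within 500 bp of its own edges.

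**Figure D3:**
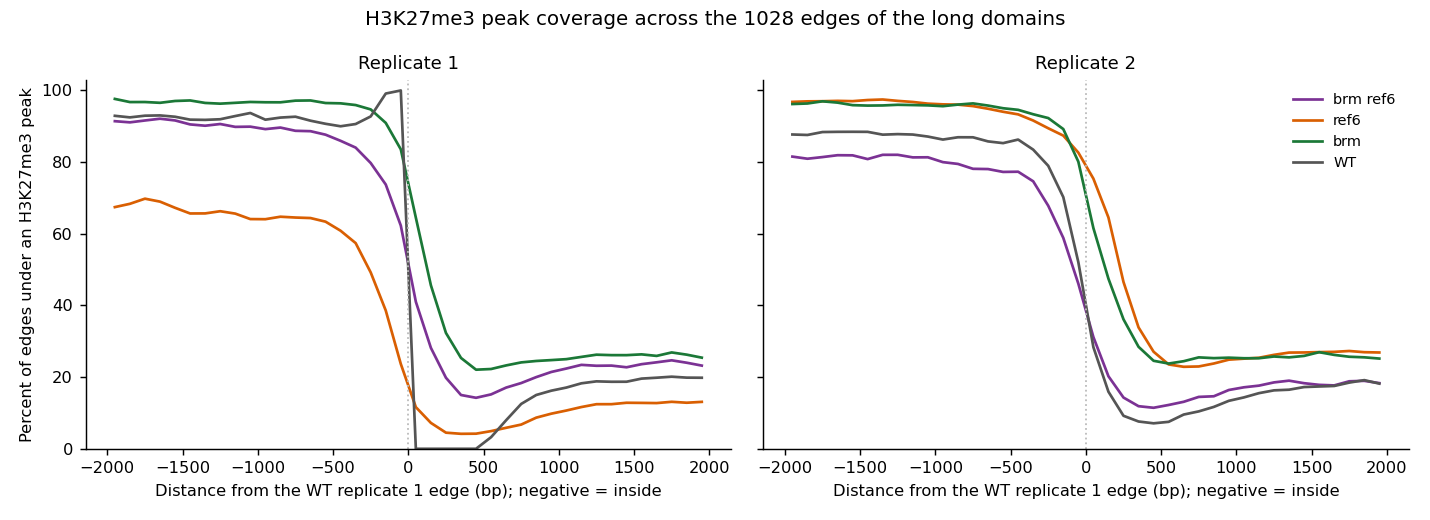
Percent of the 1028 edges of long domains under an H3K27me3 peak, by distance from the WT replicate 1 edge in bp (negative, inside), for replicate 1 (left) and replicate 2 (right) of each genotype. The brm curves stay above the brm ref6 curves on both sides of the edge, ref6 replicate 1 is the lowest inside, and WT replicate 1 is 0 just outside by construction.

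Some of the shifts joined neighbouring genes into 1 domain. The domains of NF-YC6 and NF-YC7, chr5:20554049-20559556, and of NF-YC5, chr5:20560330-20568573, were separate in WT by a short gap. These genes encode histone-fold subunits of a transcription factor. Their facing edges moved by 9126 and 8991 bp and by 6876 and 7304 bp in brm. Most of each shift was the other domain, already marked in WT. The end of the STM domain, chr1:23058697-23064642, lay 7121 and 7068 bp further out in brm and 4099 and 7044 bp in ref6, against 287 bp in WT replicate 2. Most of this was the next WT long domain with AT1G08517, chr1:23065162-23071677, which lay just past the STM domain. In ref6 replicate 1 the shift reached only part of that domain. The domain of RALFL12, RALFL13 and SHT reached RALFL10 and RALFL11 in brm, 6686 and 8642 bp beyond its WT start. In brm ref6 the PEN1 domain, which ended at chr4:8762079 in WT, joined the CYP705A2 domain, chr4:8762900-8765970. The PEN1 end lay 5048 and 5465 bp further out, against 137 bp in WT replicate 2, and much of this was the CYP705A2 domain. The end of the domain of AFO, a YABBY factor of leaf polarity, at chr2:18628126-18631182, lay 4999 and 5003 bp further out in brm ref6. In WT replicate 2 it lay 72 bp further in. The shift ran into the next WT long domain, which ends at chr2:18636201, so much of it was already marked in WT. In ref6 a gene-free domain on chromosome 3 reached ABCB16, 3327 and 4008 bp beyond its WT start, against 1282 bp in WT replicate 2. These edges were chosen for their size, and their shifts are a description.

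The same joining and length rule applied to each genotype's own pair of libraries gave 545 long domains in brm ref6, 337 in ref6, 918 in brm and 514 in WT. Long domains of brm ref6 overlapped 380 of the 514 WT long domains (73.9%), those of ref6 254 (49.4%) and those of brm 501 (97.5%). As a share of the mutants' own lists, 68.6% of those in brm ref6, 76.3% in ref6 and 52.7% in brm overlapped a WT long domain. Nearly all of the others overlapped a shorter WT domain: 18 in brm ref6, 13 in ref6 and 3 in brm had no WT domain at all. A long domain was found in all 3 mutants at 234 of the 514, in brm and brm ref6 but not in ref6 at 144, and in brm alone at 107. In 9 it was found in no mutant, among them those of SEP2 and of IMPA-5, an importin. The SEP2 domain spans 3202 bp in WT and had 84.4% and 86.3% in brm ref6, 76.1% and 100% in ref6, 96.2% and 91.3% in brm, and 99.2% and 94.0% in WT. It reached 100% in ref6 replicate 2, and the rule asks for the length in both libraries, so 1 library under the bound is enough to miss it. The ref6 count rests on replicate 1, which had 341 joined domains of at least 3000 bp, against 1158 in ref6 replicate 2.

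GFP peaks were scarce inside the long domains. The interior, over 500 bp from either edge, held 1.94 REF6-GFP peak centres per Mb in the first library (4 peaks), against 45.4 per Mb over the whole genome. BRM-GFP had 7.27 per Mb in its first library (15 peaks), against 102.6 per Mb over the genome. Across the 9 GFP libraries the interior density was 0.148 times that of the genome (mean log2 -2.76 ± 0.96, SD, n = 9; below the genome in 9 of 9). An exact sign-flip permutation over libraries, two-sided, gave p = 0.00391, the smallest that 9 libraries allow, and 0.0146 adjusted over 15 such tests. The 9 libraries, here and below, mix both fusions and several genotypes over the same domains, so they are not replicates of 1 condition. By fusion, the mean log2 was -2.62 over the 5 REF6-GFP libraries (exact sign-flip p = 0.0625) and -2.93 over the 4 BRM-GFP libraries (exact sign-flip p = 0.125). Each p is the smallest possible for its number. Set against the interiors of those other WT domains long enough to have one, it was 0.671 times as dense (mean log2 -0.57, lower in 8 of 9 libraries, exact sign-flip p = 0.00781, adjusted 0.0234). The first BRM-GFP library went the other way, with 7.27 against 6.94 per Mb. By fusion, the mean log2 was -0.44 for REF6-GFP (exact sign-flip p = 0.0625) and -0.74 for BRM-GFP (exact sign-flip p = 0.25). Interiors of shorter domains lie nearer to an edge, and the effect of that was not tested.

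At the edges, within 500 bp on either side, peaks were denser than in the interior and sparser than over the genome. The edge density was 2.52 times that of the interior (mean log2 1.33 ± 0.85, SD, n = 9; higher in 9 of 9; exact sign-flip p = 0.00391, adjusted 0.0146). By fusion, the log2 ratio averaged 1.45 ± 0.93 over the 5 REF6-GFP libraries (exact p = 0.0625) and 1.19 ± 0.86 over the 4 BRM-GFP libraries (exact p = 0.125), each the smallest possible for its number. It ranged from 0.28 in ref6 BRM-GFP replicate 1 to 2.89 in the first REF6-GFP library. The counts behind it are small, 4 to 37 peaks at the edges and 3 to 17 in the interiors per library, and 0.5 was added to each. From 500 to 1500 bp outside the edge, the density was 4.75 times that of the interior (mean log2 2.25, n = 9), above the 2.52 times at the edges. Density thus rose from the interior outwards, and the edges were not where peaks were densest. In that outside window the first libraries had 46.9 REF6-GFP and 93.9 BRM-GFP peak centres per Mb, against 45.4 and 102.6 over the genome. REF6-GFP replicate 2, with 21.5 against 22.7, and brm REF6-GFP replicate 2, with 17.6 against 18.5, were likewise near the genome. The remaining libraries lay lower there relative to the genome. Of these, brm REF6-GFP replicate 1 had 23.5 against 33.6 and REF6-GFP replicate 1 19.6 against 30.9. The ref6 BRM-GFP libraries had 8.80 against 21.0 and 12.7 against 21.5, and the later BRM-GFP library 3.91 against 12.3.

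**Figure D4:**
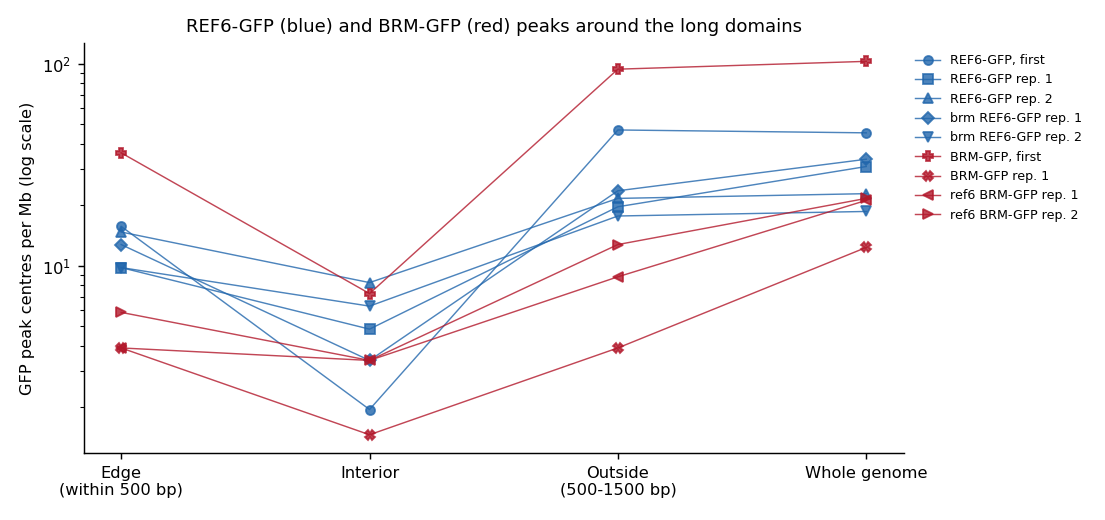
GFP peak centres per Mb (log axis) at the edges of long domains, in their interior, 500 to 1500 bp outside and over the whole genome, with 1 line per library (REF6-GFP blue, BRM-GFP red). All 9 lines dip in the interior, and all 9 edge values lie below the genome value.

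Few long domains held a GFP peak. A peak overlapped 2.33% and 3.31% of them in brm REF6-GFP and 4.09%, 2.92% and 3.89% in REF6-GFP (95% Clopper-Pearson interval of the first REF6-GFP library, 2.55% to 6.18%, counting error only). A peak overlapped 1.95% and 2.33% in ref6 BRM-GFP and 5.45% and 0.973% in BRM-GFP, the higher value being the first library with 12230 peaks in all and the lower one the later library with 1466. Of the other WT domains, a peak overlapped 2.03% and 2.22% in brm REF6-GFP, 3.91%, 2.10% and 2.22% in REF6-GFP, 2.17% and 2.26% in ref6 BRM-GFP, and 5.35% and 1.90% in BRM-GFP. The share of long domains was above that of the shorter ones in all 5 REF6-GFP libraries and in 2 of 4 BRM-GFP libraries. Such a share grows with length, and the medians were 4413 and 1070.5 bp. Per Mb of interior, long domains had fewer peak centres than the others in all 5 REF6-GFP libraries (1.94 against 2.48 in the first) and in 3 of 4 BRM-GFP libraries. The number of long domains with a peak averaged 14.5 in brm REF6-GFP and 17.5 in later REF6-GFP libraries (exact permutation p = 0.667), and 11 in ref6 BRM-GFP and 5 in the later BRM-GFP library (exact permutation p = 0.33). With the first BRM-GFP library added, the BRM-GFP mean was 16.5 and the direction turned (exact permutation p = 1). With these numbers of libraries no p below 0.33 can be had. No GFP peak of any library lay in or within 500 bp of 378 of the 514 domains (73.5%). This share was not counted for the other WT domains, so it cannot be called particular to long ones. Of the 26 domains with list genes, 19 had none, a share like that of all long domains. The FLC, AP1, YUC4, PIN5 and CUC2 domains had a peak of the first BRM-GFP library within those bounds, and MEA one of the first REF6-GFP library.

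Of the 136 long domains with a GFP peak of any library in them or within 500 bp, few had one in every library of a fusion: 8 in all 5 REF6-GFP libraries and 4 in all 4 BRM-GFP libraries. A REF6-GFP peak was found in 17 long domains or within 500 bp of them in both later REF6-GFP libraries, and 3 domains had a peak in all 9 GFP libraries. The highest by the authors' score, where the lower score of both libraries is given, were an edge of the domain with AT3G31161 (811.91) and an edge of that with AT1G27870 (610.85). Interior peaks followed in the domains of NAC067 (433.68), MIR169e (343.27), MYB23 (219.43), MYB94 (133.9) and MIR394a (72.62). BRM-GFP had 5 such domains in its first and later libraries, and 4 of them, those of AT1G27870, AT3G31161, NAC067 and MYB94, are among the REF6-GFP domains just named. The fifth was that of ASL1, a LOB-domain gene, at its edge. The NAC067 domain was covered by H3K27me3 peaks at 93.4% and 94.6% in brm ref6, 87.3% and 100% in ref6, 93.4% and 100% in brm, and 98.3% and 93.3% in WT.

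In the first libraries most of the highest scores lay at or just outside edges. A REF6-GFP peak of score 2575.96 stood just outside the domain of GulLO5 and GulLO2, which encode gulonolactone oxidases, where a BRM-GFP peak scored 1106.28. The next REF6-GFP peak, 1857.94, stood outside the domain of the MADS-box genes AGL72 and AGL71. For BRM-GFP the next were outside the domains of AFO (946.47), AHL22 (476.3) and MS1 (414.02), an anther gene. In all, 49 long domains had a first-library REF6-GFP peak in them or within 500 bp, 81 a first-library BRM-GFP peak, and 9 both.

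H3K27me3 outside edges with a first-library REF6-GFP peak within 500 bp, set against other edges, differed in sign between genotypes. There were 47 such edges in 45 domains and 981 others. Peaks of H3K27me3 covered 34.5% and 29.8% of the 1000 bp outside these edges in brm ref6, against 20.4% and 15.3% outside the others. In ref6 it was 22.3% and 48.3% outside these edges, against 6.04% and 36.0% outside the others. In brm it was the other way, 18.1% and 13.7% against 31.5% and 33.2%, and in WT 3.67% and 6.39% against 5.58% and 12.4%. The difference between edges with and without the peak was thus positive in all 4 libraries of plants with ref6-1 and negative in the 4 others. It averaged 14.3 ± 0.277 points in brm ref6, 14.3 ± 2.81 in ref6, -16.4 ± 4.25 in brm and -3.94 ± 2.86 in WT (SD, n = 2 each). The 4 ref6-1 libraries minus the 2 brm libraries gave 30.7 points (exact permutation over libraries, two-sided, p = 0.0667, the smallest that 4 against 2 allow). The test was chosen after these values were seen, and since the groups did not overlap it could give no other p. The same signs were found at the 455 edges of shorter WT domains with such a peak, from 5.77 to 8.64 points in the ref6-1 libraries and -15.2 and -18.1 points in brm, so the pattern is not particular to long domains.

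**Figure D5:**
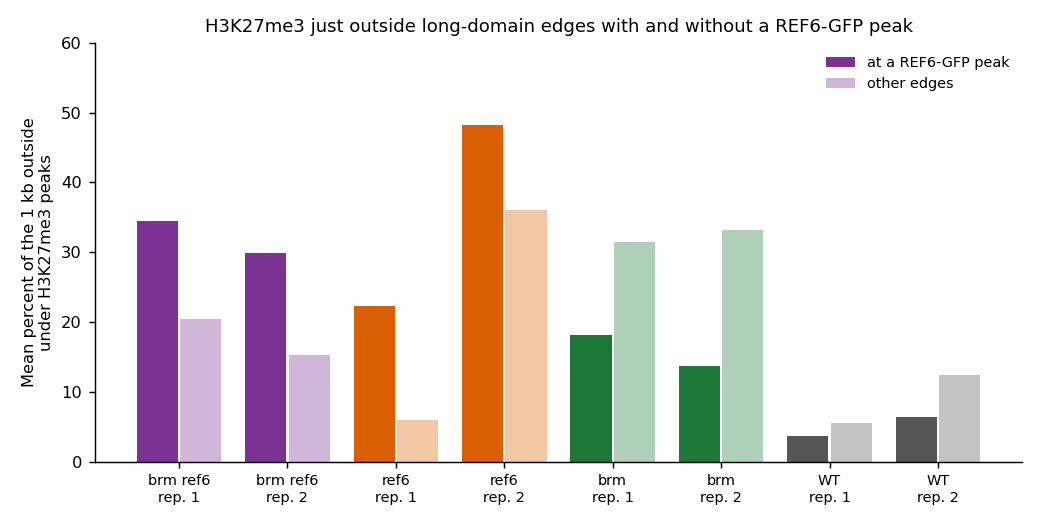
Mean percent of the 1000 bp outside long-domain edges under H3K27me3 peaks in each library, for the 47 edges with a first-library REF6-GFP peak within 500 bp (full colour) and the 981 others (pale). The full bar is the taller in the 4 libraries of brm ref6 and ref6 and the shorter in the 4 of brm and WT.

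Single edges show the pattern. At the end of the domain of IPS1, a non-coding RNA of phosphate starvation, peaks covered 100% and 100% of the 1000 bp outside in brm ref6, 100% and 100% in ref6, 48.1% and 25.3% in brm, and 41.3% and 17.5% in WT. At the end of the MEA domain the values were 70.0% and 81.5% in brm ref6, 83.2% and 100% in ref6, 39.3% and 4.6% in brm, and 0% and 0.7% in WT. The mark thus ran 832 and 1152 bp past the WT edge of the MEA domain in ref6. At the end of the domain with AT3G14490, where the REF6-GFP peak scored 715.85, they were 100% and 100% in brm ref6, 96.8% and 100% in ref6, and 0% in both brm and both WT libraries. At the start of the domain of ADS4, a fatty acid desaturase gene, they were 100% and 75.8% in brm ref6, 72.7% and 100% in ref6, 34.7% and 26.8% in brm, and 0% and 25.3% in WT. Over 50% of the window was covered in both libraries at 13 of the 47 edges in brm ref6, 9 in ref6, 2 in brm and none in WT, so most of the 47 edges did not show it. These edges were ranked by their coverage in ref6 and are examples.

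At the 76 edges with a first-library BRM-GFP peak, coverage outside was lower than at the 952 others in each of the 8 libraries. It was 8.64% and 7.83% against 22.0% and 16.6% in brm ref6, 0.375% and 20.6% against 7.29% and 37.8% in ref6, 15.9% and 16.2% against 32.1% and 33.6% in brm, and 0.483% and 3.82% against 5.90% and 12.7% in WT.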

How the data were processed

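Each of the 17 peak lists used belongs to 1 library (8 H3K27me3, 9 GFP), and 10 inputs are not used here. The submitters' processing notes name Bowtie2 2.2.5, MACS 1.4 and the TAIR10 build. In the lists deposited by the authors each peak carries a score, -10 times the base-10 logarithm of its p-value, of at least 50, used here only to rank and filter. Read depth is unknown.

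Percent coverage is the share of a WT replicate 1 domain under a library's peaks. Domains were tested between mutants with limma 3.58.1 (R 4.3.3, trend) with Benjamini-Hochberg adjustment over 4890 domains, called under 0.05. A run on simulated data drew every genotype from the brm means and the brm spread. It therefore cannot show how the test behaves with the wider spread of the ref6 libraries. Other tests are exact permutations over libraries (Python 3.11.15). Genes came from a RefSeq table of TAIR10.1, used for names and overlap only. Coordinates are TAIR10, counted from 1.

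Members, gene lists and tests were chosen with earlier results of these data known. Named were list and family genes inside, genes of the 10 longest domains, the extremes of each mutant or contrast, and the highest GFP peaks. Genes at the largest edge shifts, at REF6-GFP edges and of storage and triterpene synthesis were named after their values were seen. Alternatives changed gap, length, score, scale, windows and libraries.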

Additional observations from a re-analysis of the deposited data

Results flagged for a closer look

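The difference in H3K27me3 coverage outside edges with and without a first-library REF6-GFP peak was singled out because genotypes moved opposite ways. It was 14.3 points in brm ref6 and 14.3 in ref6, with every library positive, and -16.4 points in brm, with both libraries negative. The exact permutation over libraries, chosen after these values were seen and bound to give its smallest p, gave p = 0.0667. In WT, which set the edges, the difference was -3.94 points.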

How the results depend on the processing

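Of 3 results on the number of long domains called between mutants, those of ref6 minus brm and brm ref6 minus brm (1 each) were the least stable. Both were 2 with a gap of 1000 bp and with only domains of at least 1000 bp tested. Both were 0 with a gap of 200 bp, with a minimum length of 5000 bp, with a score of at least 100, and on the arcsine square root scale. Without the trend, ref6 minus brm was 2. With each library centred on its median, chosen after seeing the data, both were 0, and of all WT domains 15 were called higher and 0 lower for each contrast with brm, a reversed split. Leaving out 1 library gave 0 to 273 for ref6 minus brm, 0 to 85 for brm ref6 minus ref6 and 0 to 3 for brm ref6 minus brm, with 273 and 85 reached without ref6 replicate 2 (a lone library is assumed to vary like the other groups).

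The labels do not say whether replicate numbers pair the libraries. Differences of replicate 1 minus replicate 2 correlated by 0.0333 (brm, ref6), 0.149 (brm, brm ref6) and -0.114 (ref6, brm ref6) over domains. These low values cannot show that no batch was shared. With the replicate number as a block, 0 long domains were called for ref6 minus brm and 0 for brm ref6 minus brm, and 140 and 126 of all WT domains. With the ref6 numbers crossed, likewise 0 and 0, and 142 and 114.

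The number of long domains was 305 with a gap of 200 bp and 136 with a minimum of 5000 bp, and genes inside numbered 526 and 339, and 1528 with a gap of 1000 bp. Mean coverage in brm was 90.7% with a gap of 1000 bp, 97.4% with 200 bp, 94.6% with the bounds of both WT libraries joined, and 94.1% to 96.1% with 1 library left out; in brm ref6 it was 73.9% with a gap of 1000 bp. The difference of brm ref6 minus ref6 ran from -12.3 points without ref6 replicate 1 to 20.7 without ref6 replicate 2, and was -0.81 without brm ref6 replicate 1. The median edge shift in brm was 160.25 bp (gap 1000 bp), 183.25 (gap 200 bp), 161.5 (minimum 5000 bp), 179.5 (score 100), 235 (bounds of WT replicate 2) and 166.25 to 229.5 with 1 library left out, outward each time. Long domains by the same rule numbered 570 in ref6 with a gap of 1000 bp, 335 in brm ref6 and 148 in ref6 with 200 bp, 176 in brm ref6, 79 in ref6 and 306 in brm with a minimum of 5000 bp, and 187 in ref6 with a score of at least 100. The mean share of long domains with a REF6-GFP peak was 4.40% with a gap of 1000 bp, 2.21% with a minimum of 5000 bp and 2.22% with a score of at least 100. The cause of these shifts was not tested. Over its alternatives, the edge-to-interior log2 ratio stayed positive, from 0.88 to 1.65 over all GFP libraries, and the REF6-GFP edge difference of 30.7 points ranged from 11.9 (peaks of later REF6-GFP library 2) to 37.8 (gap 200 bp). Peak lists carry no depth, so a gap cannot be told from a thinly sequenced stretch, and GFP densities inside domains rest on few peaks.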
